A study of Sus scrofa with 48 samples.

Results

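Described here are genes that handle thyroid hormone or recover its iodine in gluteus medius muscle (GM), liver and kidney of pigs. The list has 6 genes: IYD, the deiodinases DIO1, DIO2 and DIO3, the hormone receptor THRB and the serum carrier TTR. IYD was chosen by the difference between the F2 E and F2 C offspring in liver, so its values in that contrast are given as a description without a test, and the other 5 genes were added for their part in the handling of the hormone. Probes were assigned to genes through the pig RefSeq accession that the array design gives them. This named 2628 of the 43603 probes, for 1862 genes, and 5 of the 6 genes had a probe, 1 each. THRB had no named probe. A further 4803 probes carry an Ensembl transcript accession, 0 of which could be named with the tables at hand, so a THRB probe may lie among them and was not analysed here.

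RNA of the 3 tissues was taken from 16 F2 pigs of Swiss Large White background soon after slaughter as finishing pigs and was hybridised to 48 Agilent porcine arrays in 1 colour, 1 array per pig and tissue. F2 C were 8 offspring, 4 barrows (castrated males) and 4 females, whose F0 boars had received a standard diet. F2 E were 8 offspring, again 4 barrows and 4 females, whose F0 boars had received the standard diet with added methylating micronutrients, namely methionine, choline, betaine, folate and the vitamins B6 and B12. The F1 boars and the F2 pigs of both groups were kept on standard diets, so the groups differ in what the F0 boars ate. Each group descended from a few F1 boars, and the labels do not say which pigs share a sire, so the diet of the F0 boars and the sire family cannot be told apart.

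The depth of an array is how far its spots stand above the local background. Pigs are numbered here within each group by the order of their liver arrays in the labels. Before normalization, a liver array had a median spot signal from 97 to 151 for F2 C and from 88 to 167 for F2 E. Kidney arrays had 100 to 178 for F2 C and 48 to 240.5 for F2 E, in which pigs 5 and 7 had the lowest value, 48 each. GM arrays had 50.5 to 85 for F2 C and 48 to 88.5 for F2 E, and their local background was higher for F2 E, with medians from 26 to 28, than for F2 C, with 14 to 24. Of the 4 slides of each tissue, 2 held arrays of both groups in liver and 0 did so in kidney and GM. Slide and group therefore cannot be told apart in kidney and GM, nor on the remaining liver slides. The numbers that the labels give the pigs fall into a lower and an upper series with 4 pigs of each group in each, and values within these series are given beside pooled ones for IYD and where the series differ in direction, apart from DIO1 in GM, which was not well above background.

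Thyroid hormone is made in the thyroid gland from iodinated tyrosines, is carried in blood by TTR, thyroxine-binding globulin and albumin, and acts through nuclear receptors. Most of the active form, triiodothyronine, is made outside the gland by removal of an iodine from thyroxine, and liver and kidney are among the organs known for it. IYD removes iodine from the iodotyrosines left over in hormone synthesis and so returns it for use again, mainly in the thyroid gland but also in liver and kidney.

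To place each gene among the tissues, the 48 arrays were normalized together, and the values by tissue are log2 signals on that scale. IYD was brightest in liver, with 13.18 ± 0.37 (SD, n = 8) in F2 E and 11.73 ± 0.65 in F2 C, followed by kidney with 11.19 ± 0.41 in F2 E and 9.97 ± 0.55 in F2 C. In GM it stood at 6.06 ± 0.35 in F2 C and 5.88 ± 0.40 in F2 E, well above background on 2 of 8 and 0 of 8 arrays. The F2 C liver arrays and the F2 E kidney arrays overlapped, and so did both groups in kidney and both in GM, so these neighbours in the order do not stand apart beyond their spread. Averaged over both groups, IYD was 1.87 higher in liver than in kidney (95% confidence interval 1.56 to 2.19, 3.66-fold, limma, adjusted p 5.08e-15), beside 70% of the 34499 probes called in that comparison. Against GM, the F2 E mean was at least 128-fold higher in liver and at least 32.3-fold higher in kidney, with each GM array set to the lowest signal of any probe that was well above background on it, or to its IYD signal where that was higher. No bound is given for F2 C, whose means were lower in liver and kidney, and where IYD was well above background on 2 of 8 GM arrays. Whether fewer cells of a type or less RNA per cell lies behind a lower level cannot be told apart in whole tissue.

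DIO1, the deiodinase that makes triiodothyronine in liver and kidney and clears inactive forms, stood at levels in both organs that overlapped widely. Its group means, from high to low, were 11.14 ± 0.90 in F2 C kidney, 10.99 ± 0.91 in F2 E kidney, 10.95 ± 0.81 in F2 C liver and 10.47 ± 0.45 in F2 E liver (SD, n = 8 each). The difference of liver from kidney was -0.35, with a 95% confidence interval from -0.80 to 0.09 and an adjusted p of 0.151. It was -0.02 with the processed signal scaled to the 75th percentile (adjusted p 0.951). Without F2 C pig 8 or F2 E pig 7 that difference was called, at -0.49 each with adjusted p 0.0492 and 0.0430. In GM, DIO1 was well above background on 0 of the 16 arrays, and the F2 C means were at least 35.7-fold higher in liver and at least 40.7-fold higher in kidney. The F2 E means were at least 20.5-fold higher in liver and at least 29.3-fold higher in kidney. DIO2, which makes the active hormone inside cells of tissues such as muscle, was dim in all 3 tissues, with 6 group means between 6.15 and 6.69. It was well above background on 10 of 16 liver, 16 of 16 kidney and 8 of 16 GM arrays. The difference of liver from kidney was -0.48 (adjusted p 0.0102), and it was -0.05, not called, when each array was scaled to its 75th percentile instead. In the F2 E pigs alone it was -0.49 and not called (adjusted p 0.0978). Kidney and GM differed by 0.26 (adjusted p 0.159), by 0.32 without F2 E pig 2 (adjusted p 0.0421) and by -0.38 under the scaling to the 75th percentile (adjusted p 0.0428). Liver differed from GM by -0.22 (adjusted p 0.241), and by -0.44 and called under that scaling (adjusted p 0.0285). DIO3, which inactivates the hormone, was higher in liver, with 7.25 ± 0.13 in F2 C and 7.16 ± 0.29 in F2 E, than in kidney, with 6.39 ± 0.18 and 6.32 ± 0.12 (difference 0.85, adjusted p 8.05e-14). In GM, DIO3 was well above background on 4 of 8 F2 C and 0 of 8 F2 E arrays. Its fitted difference of kidney from GM, 0.20 over both groups (adjusted p 0.0175), rests in part on signals near background, was 0.06 in the F2 C pigs alone (adjusted p 0.577) and turned to -0.55 and was called in that direction under scaling to the 75th percentile (adjusted p 4.27e-05).

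TTR, which carries thyroxine and retinol-binding protein in blood and is made mainly in liver, was brightest in liver, dimmer in kidney and dimmest in GM. Its means were 18.16 ± 0.14 (n = 7) and 18.08 ± 0.16 (n = 8) in liver of F2 C and F2 E, 12.73 ± 0.76 and 13.24 ± 1.45 in kidney, and 7.21 ± 1.45 and 7.54 ± 1.49 in GM. Liver was 35.2-fold above kidney (adjusted p 3.63e-17). Kidney was above GM (adjusted p 5.09e-19), where TTR was well above background on 5 of 8 arrays in each group, so no fold is given. The spread among pigs was widest in kidney and GM. In all, 12 of the 15 differences between tissues over the 5 genes were called, that of DIO3 between kidney and GM included, whose direction depends on the scaling, beside 70% of all probes for liver against kidney, 70.6% for liver against GM and 75.1% for kidney against GM, so the share for these genes is near that of the array.

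**Figure D1:**
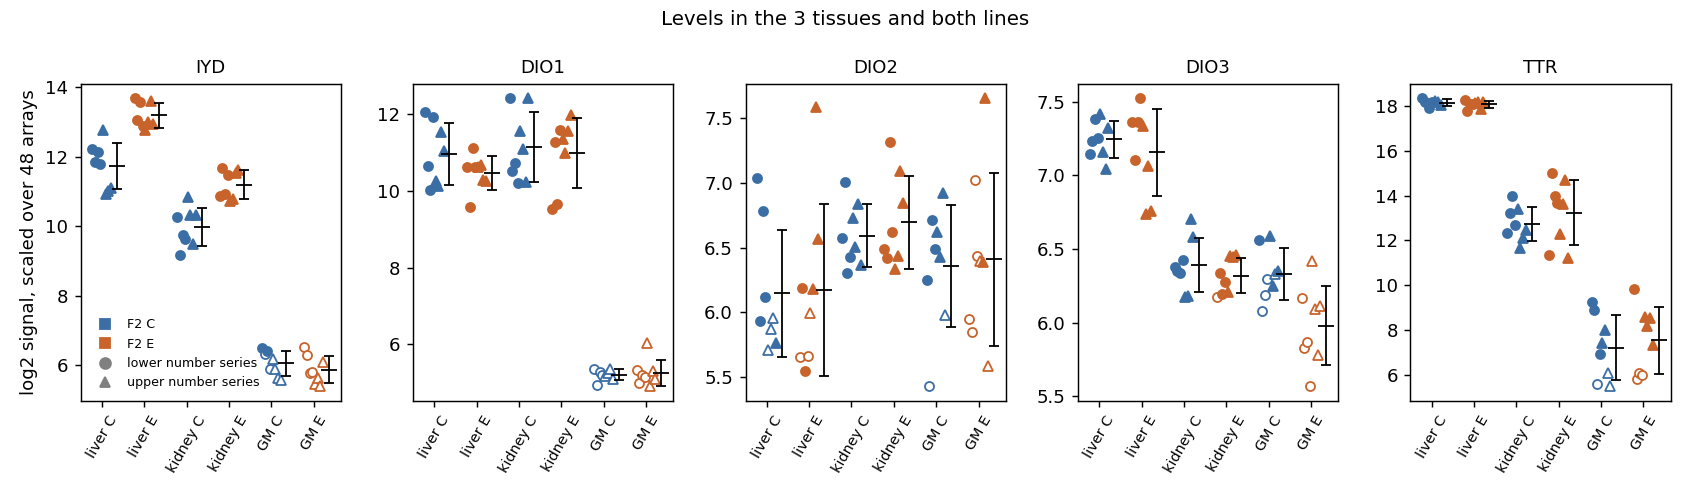
Log2 signal of IYD, DIO1, DIO2, DIO3 and TTR in each pig, with the 48 arrays normalized together, by tissue and group, where filled points are well above background, open points are not, circles and triangles are the lower and upper number series, and bars give the mean with 1 SD. IYD and TTR step down from liver through kidney to GM, DIO1 is near background in GM alone, and DIO2 and DIO3 stay low in the 3 tissues.

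The next values are on the scale of a single tissue, on which F2 E and F2 C were compared within each tissue. In liver, the contrast that chose it, IYD ran from 10.94 in the lowest to 12.77 in the highest F2 C pig with a median of 11.80, and from 12.77 to 13.73 with a median of 13.04 in F2 E. The highest F2 C pig and the lowest F2 E pig round to the same value, but all 8 F2 E pigs lay above all 8 F2 C pigs. The mean was 1.48 higher in F2 E, 2.80-fold, a description. In the liver contrast 27 of 28823 probes (0.0937%) were called. Within the pig number series the log2 ratio was 1.33 in the lower and 1.63 in the upper, and within sex it was 1.21 in barrows and 1.76 in females. On the slides that hold both groups, it was 1.38 among barrows and 1.29 among females. Each of these values compares 2 F2 C with 2 F2 E pigs, all of the lower series. The liver slides of the upper series each held 1 group, so slide and group cannot be told apart in its ratio of 1.63.

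The liver contrast that chose IYD did not use kidney values. The kidneys came from the same pigs, however, and the genes were chosen with earlier results of these data known. The kidney values are therefore not independent of that choice. In kidney the F2 C pigs ran from 9.77 to 11.40 with a median of 10.58, and the F2 E pigs from 11.28 to 12.20 with a median of 11.74. All 8 F2 E pigs lay above the F2 C median and 6 above the highest F2 C pig, pig 1, so the groups overlapped in a narrow band. The mean was 10.55 ± 0.54 in F2 C and 11.74 ± 0.39 in F2 E (SD, n = 8 each), a log2 ratio of 1.19 with a 95% confidence interval from 0.72 to 1.66, or 2.28-fold. The summed signal of the liver markers in kidney was also higher in F2 E, by 0.56. Of their 15 probes, with a median log2 ratio of 0.08, limma called 0 and 4 had an unadjusted p below 0.05, and their part in the IYD difference was not tested. Tested over all probes, the IYD ratio did not pass the threshold (limma, adjusted p 0.158), while the exact two-sided permutation test for this gene by itself gave p 0.000466. Both tests take the pigs as independent, although each group descended from a few F1 boars. Of 33662 probes, 4 (0.0119%) were called in kidney and 1310 had an unadjusted p below 0.05. IYD had rank 11 by its p. The test described in the methods put IYD past their threshold of p 0.01 and 2-fold, which 53 probes (0.157%) passed, and gave it an adjusted p of 0.347. The ratio was 1.48 in the lower and 0.89 in the upper number series, with exact p 0.0286 and 0.0857, and 0.83 in barrows and 1.54 in females, with exact p 0.0857 and 0.0286. The smallest p that 4 against 4 pigs allow is 0.0286. In GM, where IYD was well above background on 2 F2 C arrays and on no F2 E array, it was not compared.

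**Figure D2:**
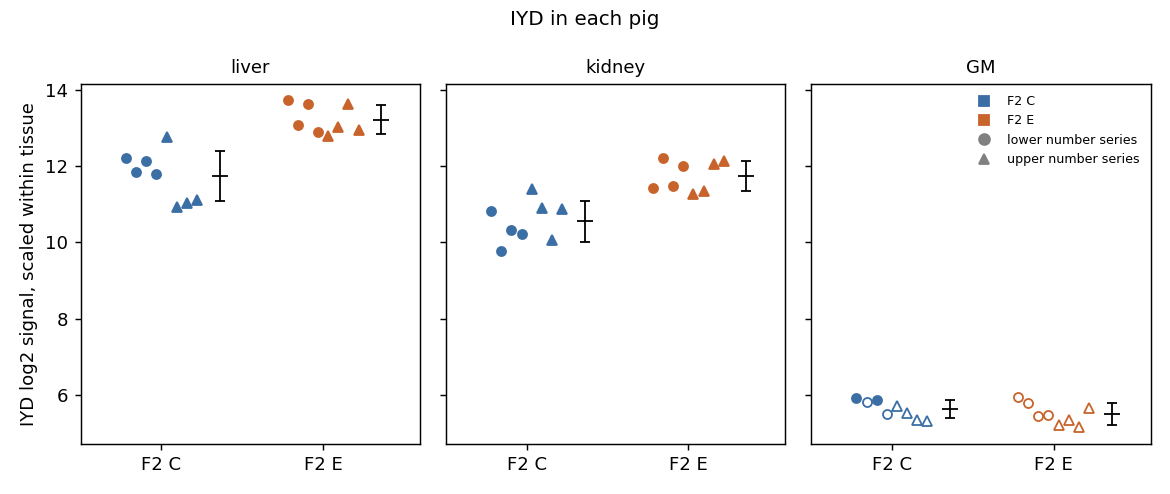
IYD log2 signal in each pig, normalized within each tissue, by tissue and group, where filled points are well above background, open points are not, circles and triangles are the lower and upper number series, and bars give the mean with 1 SD. F2 E pigs lie above F2 C pigs in liver without overlap and in kidney with a narrow overlap, while GM signals are near background.

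Within the groups, no relation of IYD between liver and kidney of the same pigs passed the threshold. Pearson's r over 8 pigs was 0.280 in F2 C (exact permutation p 0.493, adjusted 0.845), with a rho of 0.167, and -0.107 in F2 E (exact permutation p 0.886, adjusted 0.966), with a rho of 0.190. Differences of the F2 E to F2 C ratio between tissues were fitted on the 48 arrays normalized together. On that scale the log2 ratio of IYD was 0.24 larger in liver than in kidney, a description because liver chose the gene. Of the 13 differences between tissues in the ratio of these genes, the pairs of IYD with liver left out, limma called 0 and 1 had an unadjusted p below 0.05. That was IYD in kidney against GM, which rests on GM signals near background and is not read. The share of all probes called was 0.0203% for liver against kidney, 0.122% for liver against GM and 0.0464% for kidney against GM.

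For the other genes, F2 E and F2 C were not called different in any tissue. Over the 12 comparisons of the 5 genes that could be made beside IYD in liver, limma called 0, and 2 had an unadjusted p below 0.05, IYD in kidney and DIO3 in GM. The share of all probes called was 0.769% in GM. DIO3 in GM was 5.81 ± 0.12 in F2 C and 5.57 ± 0.18 in F2 E (SD, n = 8 each), -0.24 on the log2 scale (adjusted p 0.232), with 1 of 8 F2 E pigs above the F2 C median. It was well above background on 4 F2 C arrays and on 0 F2 E arrays, and the ratio was 0.0073 when arrays were scaled to the 75th percentile, so it is measured against signals near background and its direction depends on the scaling. DIO1 in liver ran from 10 to 12.05 with a median of 10.84 in F2 C and from 9.55 to 11.10 with a median of 10.62 in F2 E, and its ratio was -0.48 (95% confidence interval -1.11 to 0.14, adjusted p 0.703). In kidney, DIO1 ran from 10.79 to 12.92 in F2 C and from 10.11 to 12.48 in F2 E, with a ratio of -0.15, which was 0.30 without the 2 kidney arrays of lowest median signal. Within the number series it was -0.44 in the lower and 0.14 in the upper. The ratios of DIO2 were 0.03 in liver, 0.12 in kidney and 0.06 in GM. In liver, the ratio of DIO2 was -0.60 in the lower and 0.66 in the upper series, but both rest in part on signals not well above background, in F2 E pigs 5 and 8 of the lower and in F2 C pigs 1, 2 and 3 and F2 E pig 4 of the upper. For DIO3 in liver the ratio was 0.08 in the lower and -0.23 in the upper series. TTR in liver differed by -0.07, in kidney by 0.45 with F2 E pigs from 11.77 to 15.27, and in GM by 0.27, with -0.58 in the lower and 1.13 in the upper series.

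Barrows and females were compared with the group as a term in the model. limma called 0 of the 13 comparisons of these genes by sex, and 1 had an unadjusted p below 0.05, beside 0.121% of all probes called in liver, 0.0921% in kidney and 0.121% in GM. That was TTR in GM, at 7.42 ± 1.07 in barrows and 5.97 ± 0.80 in females, a difference of 1.44 (adjusted p 0.998). Its size depends on the processing, with 2.80 for the processed signal scaled to the 75th percentile and 0.90 after a background correction by normexp. It rests in part on signals near background, since TTR was well above background on 10 of the 16 GM arrays. A difference of the F2 E to F2 C ratio between the sexes was called by limma for 0 of 13, with 1 at an unadjusted p below 0.05, DIO2 in kidney, and for 0% of all probes in each tissue. The ratio of DIO2 in kidney was -0.36 in barrows and 0.60 in females, and their difference of -0.96 had an adjusted p of 0.906.

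Whether a gene moves with IYD among pigs was tested in liver and kidney, with group as a term. In liver, limma called 0 of the 4 genes, 0 had an unadjusted p below 0.05, and 0% of all 28820 probes were called, while 491 had an unadjusted p below 0.05. The slopes per log2 unit of IYD were -0.03 for DIO1, 0.22 for DIO2, 0.11 for DIO3 and 0.02 for TTR. The 5 named genes nearest to IYD in liver were CPA1 (slope -0.95), KLF3 (-0.46), ALOX5AP (0.37), PIK3R5 (0.43) and CCL2 (-0.69), with none called.

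In kidney, 1 of 4 genes was called: DIO1 had a slope of 1.23 log2 per log2 unit of IYD (95% confidence interval 0.49 to 1.97, limma, adjusted p 0.0413). The call was shared by 3629 of 33661 probes (10.8%), 2149 with a positive and 1480 with a negative slope, and DIO1 had rank 2223 among all probes, so its slope does not set it apart from many other probes of the array. DIO2 (slope -0.04), DIO3 (-0.06) and TTR (0.28) were not called. Within F2 C, DIO1 and IYD had a Pearson's r of 0.717 over 8 pigs (exact permutation p 0.0496, 0.726 after adjustment over the 16 relations of this kind) and a Spearman's rho of 0.690, and r was 0.848 without the 2 pigs farthest from the median. Within F2 E, r was 0.609 (exact permutation p 0.136) with rho 0.452, and 0.813 without the 2 farthest. With the number series added to the fit, the slope was 1.12 and not called (adjusted p 0.0821). Leaving out each pig in turn gave slopes from 1.1 to 1.51 and adjusted p between 0.0198 and 0.0758. The call was lost in 11 of these 16 fits and held only without F2 C pig 1 or 6 or F2 E pig 1, 4 or 7. The count of all probes called ranged from 0 to 6553 over the same fits, so single pigs decide it.

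DIO1 in kidney also moved with the signal of the array. Over the kidney arrays, r of DIO1 with the median unscaled signal was 0.793 in F2 C (exact permutation p 0.025, 0.0626 after adjustment over 10 relations) and 0.944 in F2 E (exact permutation p 0.0066, 0.0367 after adjustment). In F2 C rho was 0.786, and r was 0.648 without the 2 pigs farthest from the median. In F2 E rho was 0.755, and r was 0.466 without pigs 5 and 7, so the size of r there depends on the 2 dimmest arrays. Over the 16 kidney arrays, r of DIO1 was 0.819 with values centred by group and 0.835 with values centred by slide. On the F2 E slide without the 2 dimmest arrays, DIO1 was 11.87, 11.54, 12.09 and 12.48 at median signals of 161.5, 181, 214 and 240.5. IYD had an r of 0.844 with the median unscaled signal in F2 C and of 0.444 in F2 E, with adjusted exact p 0.0367 and 0.524, and r was 0.931 without F2 C pigs 3 and 8 and 0.0385 without F2 E pigs 5 and 7. These values pool the slides of a group. Over the 16 kidney arrays, r of IYD was 0.472 with values centred by group and 0.741 with values centred by slide. On the F2 E slide without the 2 dimmest arrays, IYD was 11.28, 11.34, 12.06 and 12.13 in the order of rising signal. DIO3 in F2 E had an r of 0.817 (adjusted exact p 0.0367), which was 0.715 without pigs 5 and 7, and in F2 C an r of -0.499 (adjusted exact p 0.433). Without the 2 dimmest arrays, a choice made after the data were seen, the slope of DIO1 on IYD was 0.96 (adjusted p 0.0448), with 3617 of 33742 probes called. The part of the array signal in the slope was not tested.

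**Figure D3:**
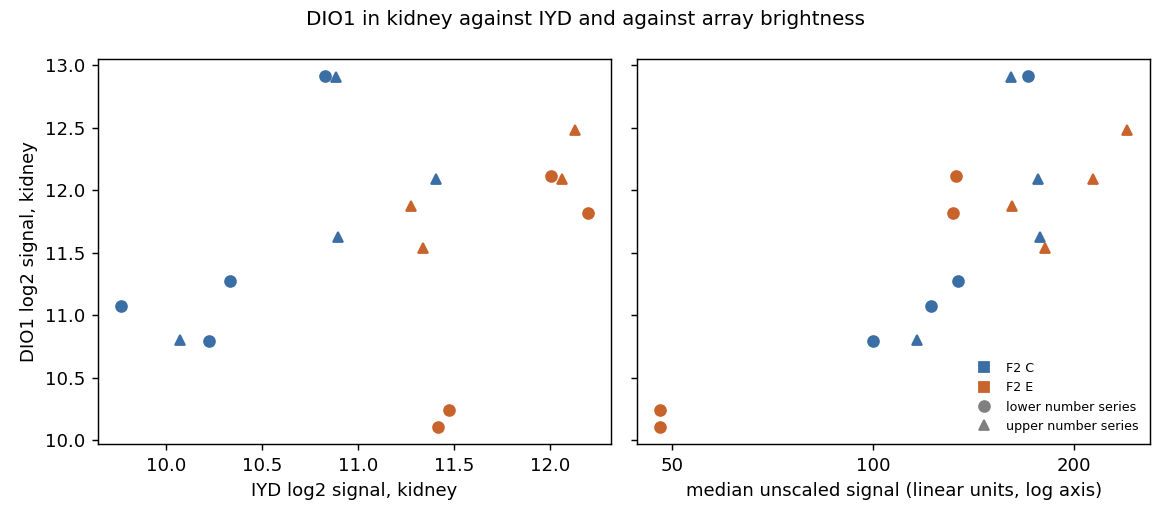
DIO1 log2 signal in kidney of each pig, normalized within the tissue, against its IYD log2 signal and against the median unscaled signal of the array on a log axis, in F2 C and F2 E, with circles for the lower and triangles for the upper number series. Within both groups r of DIO1 was positive with either measure, and F2 E pigs 5 and 7, with a median signal of 48, are lowest in DIO1.

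The 5 named genes nearest to IYD in kidney were HSD17B4 (slope 1.49), NR5A1 (0.98), ITM2B (1.35), NDUFV2 (0.77) and ARFGEF1 (0.79), each with an adjusted p of 0.0340 over 16 pigs. With the number series added to the fit, 0 of 33661 probes were called in kidney, so all kidney calls in this paragraph, for pathway and marker probes too, were lost. The same held with the processed signal scaled to the 75th percentile. Of the 53 probes compared from the lists of the hormone's pathway, 4 (7.55%) were called in kidney, beside 10.8% of all probes, 3 with a positive and 1 with a negative slope, and their median slope was -0.16 beside -0.00 over all probes. They were those of SERPINA7, thyroxine-binding globulin (0.79), and of the calcium pump ATP2A2 (0.53), 1 of the 4 compared for the coactivator NCOA2 (0.54) and 1 of the 3 for CPT1A, which brings fatty acids into mitochondria (-0.80). Of 64 marker probes 2 were called, again beside 10.8% of all probes, 1 of the 3 compared for the epithelial gene EPCAM of the bile duct list (0.88) and that of the kidney tubule marker CALB1 (1.92). In liver, limma called 0 of 53 pathway probes and 0 of 56 marker probes, 2 and 0 had an unadjusted p below 0.05, beside 1.7% of all probes, and the median slope was -0.06 beside 0.00 over all probes.

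The levels of the same gene were also compared between tissues over pigs, in 12 relations. TTR in liver and kidney had a Pearson's r of -0.760 over 15 pigs (permutation p 0.00086, 0.0103 after adjustment) and a Spearman's rho of -0.710 (permutation p 0.00408, adjusted 0.0169), and r was -0.557 without the 2 pigs farthest from the median. It was -0.604 in F2 C and -0.828 in F2 E, and -0.889 in the lower and -0.749 in the upper number series. Without the 2 farthest pigs of each subset it was -0.0993, -0.702, -0.846 and -0.243 in the same order, so in F2 C and the upper series it rests on those pigs. The lowest adjusted exact p of r over the 40 relations in subsets was 0.0764. For rho of TTR in liver and kidney, the adjusted exact p was 0.0298 in the lower series and 0.0486 in F2 E. TTR in liver and GM had an r of 0.590 (adjusted permutation p 0.124) and a rho of 0.708 (adjusted permutation p 0.0169), with an r of 0.825 in the lower and -0.0865 in the upper series, so it did not hold within both. TTR in kidney and GM had an r of -0.368 (adjusted permutation p 0.445) and a rho of -0.406, with an r of -0.847 and a rho of -0.929 (adjusted exact p 0.0298) in the lower series and an r of 0.361 in the upper, which was -0.126 without the 2 farthest pigs. DIO3 in liver and kidney had an r of -0.522 (adjusted permutation p 0.156) and a rho of -0.693 (adjusted permutation p 0.0169). Within the groups r was -0.462 in F2 C and -0.862 in F2 E, and without the 2 farthest pigs of each it was 0.455 and -0.721, so the direction in F2 C rests on its pigs 1 and 3. The liver range of TTR was narrow, from 18.02 to 18.52, so these relations rest on small differences in its brightest tissue.

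TTR in GM was well above background on 10 of 16 arrays and ran from 5.23 to 8.32 with a median of 6.43 in F2 C and from 5.46 to 8.89 with a median of 6.92 in F2 E. The highest values, in F2 E pig 5 and F2 C pigs 5 and 6, were 8.89, 8.32 and 7.97. The level moved with the summed signal of the liver markers on the same array, which ran from 11.01 in F2 C pig 7 to 13.78 in F2 E pig 5. Pearson's r of TTR with that sum over 16 pigs was 0.957 (permutation p 1e-05, the smallest that these permutations can give, adjusted 2e-05 over 2 relations), and rho was 0.982. It was 0.938 without the 2 farthest pigs, 0.979 in F2 C, 0.937 in F2 E, 0.989 in the lower and 0.883 in the upper number series. Of 13 liver marker probes that stood well above background on 50% or more of the GM arrays, 11 had an r above 0.7 with TTR, with a median of 0.894. The brightest of them in GM, APOA1, was not among these, with an r of 0.00696. In kidney TTR had an r of 0.0795 with the sum (permutation p 0.778) and a rho of -0.115, and 0 of 14 probes had an r above 0.7. The sum was 1.03 higher in GM of barrows than of females, and its part in the difference of TTR by sex was not tested.

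**Figure D4:**
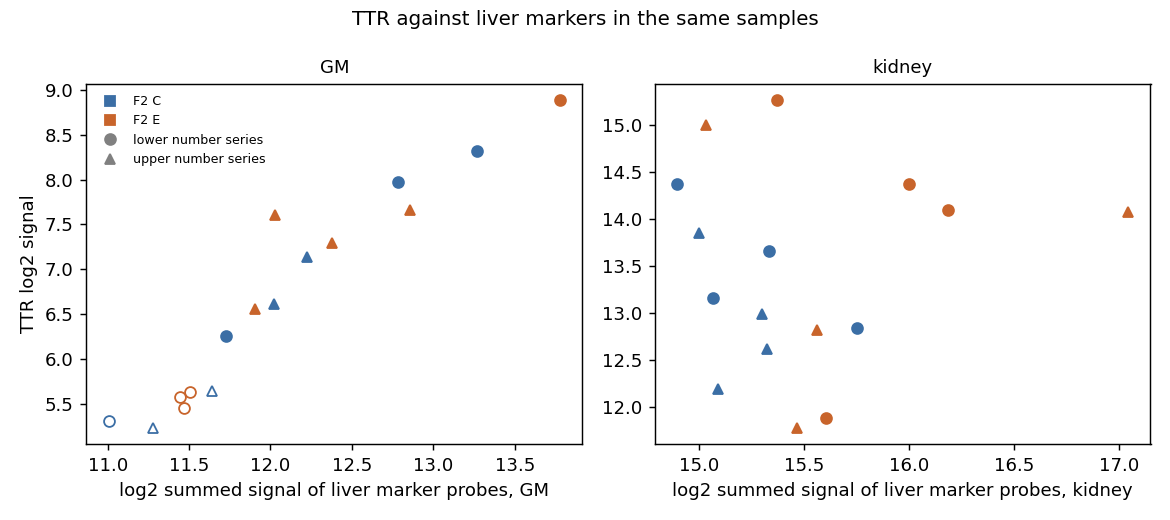
TTR log2 signal in GM and in kidney of each pig, normalized within the tissue, against the log2 summed signal of 15 liver marker probes on the same array, in F2 C and F2 E, with filled points well above background, open points not, and circles and triangles for the lower and upper number series. In GM the points follow 1 line, with an r of 0.957, and in kidney they do not, with an r of 0.0795.

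The rest of the hormone's pathway was covered by 32 of 97 listed genes, with 59 probes. By role, 6 of 17 genes had a probe for hormone synthesis in the gland and its control, 0 of 13 for transport across membranes, 4 of 7 for carriers, 3 of 16 for conjugation and selenoprotein synthesis, 6 of 18 for nuclear receptors and coregulators and 13 of 26 for genes known to respond to the hormone. Between F2 E and F2 C in liver, 1 of 53 probes (1.89%) was called, beside 0.0937% of all probes, and the median log2 ratio was -0.09 beside -0.02. In kidney limma called 0 of 53, 1 of them with an unadjusted p below 0.05, beside 3.89% of all probes, and the median was -0.01 beside -0.01. In GM it called 0 of 46, 6 of them with an unadjusted p below 0.05, beside 16.1%, and the median was 0.03 beside -0.02. The probe called in liver was that of UCP3, a mitochondrial uncoupling protein that responds to the hormone. Its level ran from 6.59 to 11.03 with a median of 9.12 in F2 C and from 5.95 to 6.65 with a median of 6.43 in F2 E, well above background on 8 and 5 arrays. All 8 F2 E pigs lay below the F2 C median, and 6 below the lowest F2 C pig. The log2 ratio was -2.72 (limma, adjusted p 0.0311). Its size is not exact, since part of the F2 E signals were not well above background.

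Between tissues, the carriers and conjugating enzymes were highest in liver. Of 58 pathway probes, 36 were higher and 7 lower in liver than in kidney (74.1%, beside 70% of all probes), with a median of 0.61 beside -0.02 over all probes, and 36 were higher and 13 lower in liver than in GM (84.5%, beside 70.6%), with a median of 0.58 beside 0.01. Between kidney and GM, 22 were higher and 22 lower (75.9%, beside 75.1%), with a median of -0.05 beside 0.05. For liver against kidney and kidney against GM, the shares are near those of the array. All 5 carrier probes were higher in liver than in kidney, with a median difference of 8.14, RBP4 at 8.14 and SERPINA7 at 6.61. All 7 probes of the conjugating enzymes were higher in liver than in kidney, with a median of 2.00 and SULT2A1 at 11.58. Of 12 receptor and coregulator probes, 6 were higher and 4 lower in liver than in kidney, and the hormone receptor THRA was 0.77 higher in liver than in kidney and -2.13 in kidney against GM. Of 28 probes of responsive genes, 17 were higher and 2 lower in liver than in kidney, and of 6 probes of the synthesis list, 1 was higher and 1 lower. The iodide transporter SLC5A5 was 1.27 higher in kidney than in GM.

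Marker genes were used to check the tissues and to look for cells of other kinds. All 15 liver marker probes were higher in liver than in kidney (median 8.60) and GM (10.23), all 7 kidney probes were higher in kidney than in GM (6.97) and lower in liver than in kidney (-7.06), and all 20 GM probes were lower in liver than in GM (-12.54) and in kidney than in GM (-12.34). These medians rest in part on signals near background, so they give a direction and no exact size. In liver 4 of the 20 GM probes, and in GM 3 of the 7 kidney probes, were well above background on no array. Genes with a probe numbered 10 of 16 for liver, 6 of 15 for kidney, 11 of 15 for GM, 2 of 7 for thyroid follicular cells, 0 of 6 for blood cells, 7 of 10 for leukocytes and macrophages, 6 of 6 for adipocytes, 3 of 5 for bile duct, 3 of 8 for endothelium and fibroblasts and 2 of 7 for immediate early genes. The brightest genes by list in liver were ALB, GGT1, DES, SLC5A5, CD14, LIPE, EPCAM, CDH5 and JUN, in the order of the lists that had a probe. In kidney they were F2, SLC34A1, DES, SLC5A5, CD163, LIPE, EPCAM, DCN and JUN, and in GM APOA1, SLC22A6, TNNC2, SLC5A5, CD163, FABP4, SOX9, DCN and JUN. Of the 2 follicular cell markers with a probe, TSHR was not well above background on any liver array, while SLC5A5 was so on every one, with a median of 8.65. In kidney and GM, both were well above background on at least 1 array. By group, limma called 0 of 56 marker probes in liver, 0 of 64 in kidney and 0 of 58 in GM, and 7, 4 and 6 had an unadjusted p below 0.05, beside 8.29%, 3.89% and 16.1% of all probes. The 4 in kidney were liver markers. In liver the summed signal of F2 E over F2 C differed by -0.07 for liver, -0.19 for kidney, 0.14 for GM and -0.17 for thyroid follicular markers. It differed by 0.39 for adipocyte, 0.02 for leukocyte, 0.10 for bile duct, 0.15 for endothelium and fibroblast and 0.56 for immediate early markers. The part of these markers in the IYD difference was not tested. In kidney the sum differed by 0.01 for kidney, 0.56 for liver, 0.14 for GM, -0.24 for thyroid follicular and 0.10 for leukocyte markers. It differed by -0.03 for adipocyte, -0.19 for bile duct, 0.03 for endothelium and fibroblast and 0.12 for immediate early markers. Their part there was not tested either.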

How the data were processed

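RNA of GM, liver and kidney of 16 pigs was measured on 48 arrays. The deposited files hold spot intensity as the authors extracted it, with median pixel signal and local background, not normalized between arrays, and their headers name version 10.5.1.1 of the Feature Extraction software. The median signal was quantile-normalized within each tissue, or over all arrays for contrasts between tissues, and then put on the log2 scale. Control spots were left out, and spots marked as outliers were removed after normalization. Probes were compared if a group had a linear signal above 25, called well above background by the software, on 50% of its arrays or more, with at least 2 arrays per group. limma 3.58.1 in R 4.3.3 (lmFit and eBayes, pig as a random block across tissues) was fitted over all probes, and calls were made at a Benjamini-Hochberg adjusted p below 0.05. Exact tests of differences between the groups were two-sided and run in R. Correlations and their exact or permutation tests, also two-sided, were run in Python 3.11.15 with scipy 1.17.1 and numpy 2.4.6. Fits were tested on simulated data.

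Named were all probes of the 6 genes, called genes of the pathway and marker lists (at most 5 per role and contrast), the brightest marker of each list, and the 5 named genes nearest to IYD. Members and lists were chosen with earlier results of these data known. Alternatives changed the test, scaling, background, filter, blocks and pigs. qPCR, methylation and carcass data were not analysed here. The number of arrays limits the precision.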

Additional observations from a re-analysis of the deposited data

Results flagged for a closer look

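In GM of the F2 E group, pig 4 had a DIO1 log2 signal of 5.61, while the other 7 pigs lay between 4.71 and 5.08. The gap to the nearest pig was larger than Dixon's 95% limit for 8 values allows. The signal was not well above background on this array. Of 30 groups of values checked, 1 went past the limit, and chance gives about 1 in 20.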

How the results depend on the processing

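Without a test, the IYD ratio in liver kept its direction under all 14 alternatives, between 1.32 and 1.66, and between 1.37 and 1.63 leaving out each pig in turn. In kidney it was not called under any of the 15, between 0.88 and 1.5 with adjusted p between 0.0550 and 1, and between 1.08 and 1.31 leaving out each pig. The count of genes called in GM stayed at 0. The sex contrast called 1 gene, DIO2 in liver at -0.77 (adjusted p 0.0297), with the median signal scaled to the 75th percentile, where 4915 of 28816 probes were called in liver. The liver to kidney difference of IYD stayed called, between 1.77 and 2.06, and between 1.81 and 1.95 leaving out each pig, and the fitted difference of its ratio between kidney and GM, which rests on GM signals near background and is not read, ran from 0.98 to 1.61, and from 1.24 to 1.54 leaving out each pig, called in 2 of 16, with fits that kept the pig correlation of all pigs (0.0301).

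The slope of DIO1 on IYD in kidney lost its call with the number series in the fit (1.12, adjusted p 0.0821), without group (0.36, 0.833), with the processed signal scaled to the 75th percentile (1.19, 0.113) and without the 2 pigs farthest from the median of IYD (1.31, 0.0725), and the cause was not tested; over 7 alternatives the adjusted p ran from 0.0394 to 0.833. Leaving out each pig gave 1.1 to 1.51.

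Directions turned under scaling of the median signal to the 75th percentile for DIO3 by group in liver (0.014), kidney (0.13) and GM (0.0073), for DIO2 and DIO3 in kidney against GM (-0.38 and -0.55, both called), and for the liver slopes of DIO3 (-0.00082) and TTR (-0.027). They turned with slide as a block for DIO2 in liver (-0.22), within the lower series for DIO2 (-0.63) and DIO3 (0.075) in liver and TTR in GM (-0.55), within the upper series for DIO1 in kidney (0.14), and without the 2 dimmest kidney arrays for DIO1 (0.30) and the slope of DIO2 (0.020). Without group in the fit, the liver slopes of DIO3 (-0.0011) and TTR (-0.028) and the kidney slope of DIO2 (0.053) turned, and without the 2 farthest pigs those of DIO2 (0.31) and DIO3 (0.021) in kidney. Leaving out each pig, the ranges of DIO2 in liver were -0.15 to 0.14, of DIO1 in kidney -0.29 to 0.053, of DIO2 in GM -0.080 to 0.14, of TTR in GM -0.020 to 0.53, and of the slopes -0.26 to 0.26 for DIO1 and -0.044 to 0.075 for TTR in liver, and -0.12 to 0.14 for DIO2 and -0.097 to 0.038 for DIO3 in kidney. None of these was called by group or slope. Without a change of direction, the kidney ratios ran from 0.22 to 0.72 for TTR and 0.015 to 0.19 for DIO2, and the kidney slope of TTR from 0.0096 to 0.59, leaving out each pig. In liver, the slope of DIO2 ran from 0.075 to 0.48 and the ratio of TTR from -0.10 to -0.032 over the same fits. Under scaling of the median signal to the 75th percentile, DIO2 in liver against GM was called (-0.44, adjusted p 0.0285). Over the alternatives, the liver to kidney difference of DIO3 ran from 0.81 to 1.35 and stayed called. That of DIO2 ran from -0.94 to -0.05.

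Over the alternatives, the count of all probes called by group ran from 9 to 60 in liver against 27, from 0 to 518 in kidney against 4 and from 5 to 1116 in GM against 197, and that of the kidney slopes from 0 to 3941 against 3629. With the replicate block, arrays of the same replicate number, 0 probes in kidney and 51 in GM were called. Leaving out each pig gave 13 to 40 in liver and 88 to 196 in GM. A planned fit on the mean signal was not run, since the files hold no such column, and a background correction by normexp was added after the data were seen, as was the fit without the 2 dimmest arrays. Signal near background limits what the 5 genes show in GM and DIO2 in liver. Each gene had a single probe, the labels name no sires or litters, and the relations among pigs rest on few pigs.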
